A study of Mus musculus with 30 samples.

Results

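Skeletal muscle transcripts were compared between the 10 samples of retinal pigment epithelium (RPE) with the highest and the 10 with the lowest level of Mylpf, out of 30 samples in all. Mylpf encodes the fast regulatory myosin light chain. The samples were ranked by its FPKM (fragments scaled by transcript length and mapped depth), so 20 of 30 samples enter the comparison and 10 of middle rank lie on neither side. These are called muscle-rich, muscle-poor and middle samples below. The study profiled RPE by RNA sequencing over 1 day in 30 male wild-type C57BL/6 mice, 10 to 13 weeks old. There were 5 mice at each of 6 zeitgeber times (ZT0, ZT2, ZT4, ZT9, ZT14 and ZT19, hours after lights-on by convention), with 1 eye per mouse and no treatment. RPE is the pigmented layer behind the photoreceptors. Per the labels it was lifted with forceps from an eyecup that also held choroid and sclera, and no sample was labelled as muscle.

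A skeletal muscle fibre contracts when myosin of the thick filament pulls on actin of the thin filament. Troponin and tropomyosin on the thin filament open the binding sites when calcium leaves the sarcoplasmic reticulum, and creatine kinase and glycolysis supply ATP. The muscles that move the eye insert on the sclera, and they hold fast, slow and developmental fibre types side by side.

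Among the muscle-rich samples the lowest Mylpf value was 2951 FPKM, the median 4426 and the highest 9847. The muscle-poor samples ran from 828 through a median of 1325 to 1606 FPKM. Just inside the upper side lay ZT9 replicate 4 at 2951, and just outside it ZT2 replicate 2 at 2553. Just inside the lower side lay ZT14 replicate 2 at 1606, and just outside it ZT0 replicate 1 at 1683. Values thus lay close together across both limits, and every sample held Mylpf. These values chose the samples, so every difference in expression between the sides given here is a description, and no test was made of it. Only the make-up of the sides by the labelled time and eye, which the ranking did not use, was tested.

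The other defining markers followed Mylpf. Tnni2, the fast troponin subunit that inhibits the actin and myosin interaction, ran from 1284 through 2008 to 4117 FPKM (lowest, median, highest) in the muscle-rich samples. In the muscle-poor samples it ran from 367 through 636 to 841 FPKM. Tnnt3, the fast troponin subunit that binds tropomyosin, ran from 1022 through 1334 to 3122 FPKM against 284 through 431 to 609 FPKM. For both genes the sides did not overlap, while the middle samples reached into the range of one side: up to 1299 FPKM for Tnni2 and down to 481 FPKM for Tnnt3. The 97 genes of 10 muscle lists together took 1.91% to 4.79% of all FPKM in the muscle-rich samples (median 2.41%). In the muscle-poor samples they took 0.535% to 1.22% (median 0.936%).

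**Figure D1:**
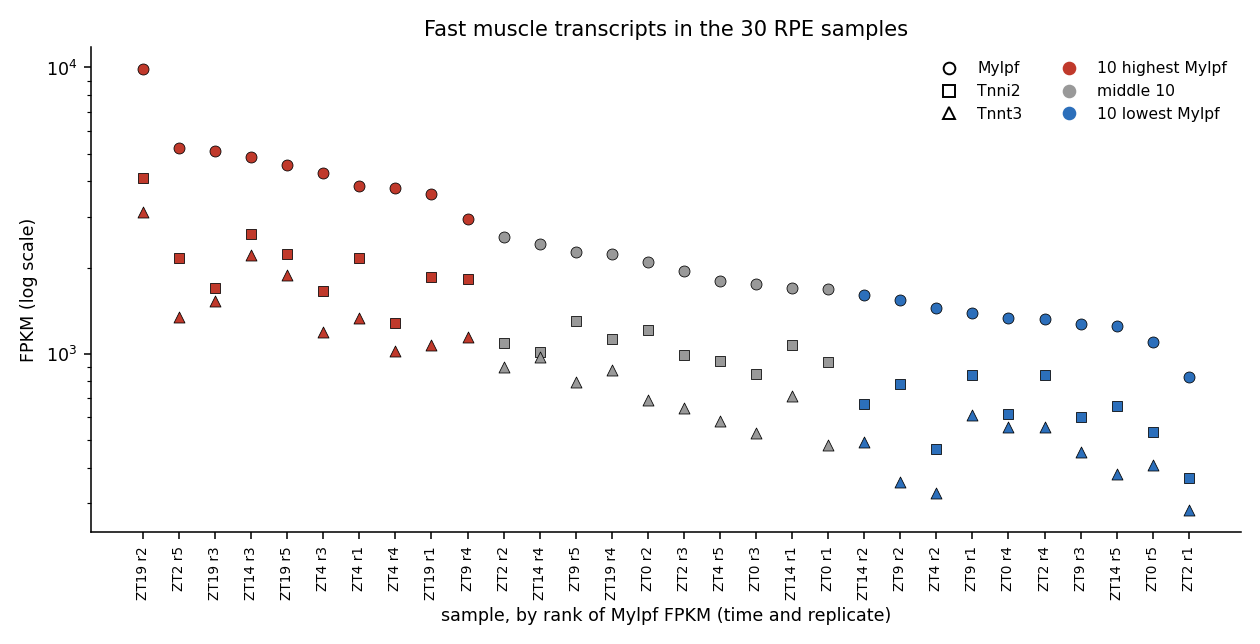
FPKM (log axis) of Mylpf, Tnni2 and Tnnt3 in each of the 30 samples, ordered by Mylpf, with colour for the side. Mylpf falls from 9847 FPKM in the highest sample, through 5245 in the next, to 828 in the lowest, and the other markers are lower in the muscle-poor samples than in any muscle-rich one.

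The time make-up of the sides was uneven. The muscle-rich side held 4 samples of ZT19, 3 of ZT4, 1 each of ZT2, ZT9 and ZT14, and 0 of ZT0. The muscle-poor side held 3 samples of ZT9, 2 each of ZT0, ZT2 and ZT14, 1 of ZT4 and 0 of ZT19. Night samples (ZT14 and ZT19) against day samples (ZT2, ZT4 and ZT9) numbered 5 and 5 on the muscle-rich side and 2 and 6 on the muscle-poor side, p = 0.367 by a two-sided Fisher's exact test. Left and right eyes numbered 5 and 5 on both sides, p = 1 by the same exact test. Because ZT0 was found only on one side and ZT19 only on the other, differences are also given with time as a term in the fit, or without these times, where that matters. With time as a term, samples of ZT0 and ZT19 add nothing to the difference between the sides. Both kinds of value thus rest on the same 6 muscle-rich and 8 muscle-poor samples, and no SE is given for them. The only muscle-rich sample of ZT14 among them is replicate 3, described below.

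By estimate each library held between 12.3 and 22.9 M reads, M standing for mega, and the sides overlapped in depth (15.1 to 22.9 against 15.5 to 21.4 M). ZT14 replicate 3, a muscle-rich sample, stood apart: 12754 genes were above 0 there against 16723 to 19374 in the other 29 samples. It listed 537 genes at 0 whose median over the samples was at least 10 FPKM, and each other sample listed 1 to 22 such genes. The count of genes kept apart, the muscle median and the differences of Myh13 and Myf6 are also given without it. These are bulk samples, in which fewer cells of a type and less RNA per cell cannot be told apart.

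Mylpf (ENSMUSG00000030672) lies on chr7:127208890-127214298, plus strand, of GRCm38, the assembly also called mm10. Tnni2 (chr7:142441808-142444410) and Tnnt3 (chr7:142498836-142516009) are neighbours on the same chromosome and strand. The 250 bases before the RefSeq start site (GRCm38.p6) are shown for Mylpf and for Ckm and Acta1, 2 of the 10 genes closest to it, because their levels tracked one another over the samples. Capitals mark CAGCTG, a form of the E-box that the MyoD family of muscle regulators binds, and in Acta1 also a CArG box, the site of serum response factor. Windows are chr7:127211358-127211607 (plus strand), chr7:19410844-19411093 (plus) and chr8:123894776-123895025 (minus, printed 5′ to 3′ as transcribed).
Mylpf: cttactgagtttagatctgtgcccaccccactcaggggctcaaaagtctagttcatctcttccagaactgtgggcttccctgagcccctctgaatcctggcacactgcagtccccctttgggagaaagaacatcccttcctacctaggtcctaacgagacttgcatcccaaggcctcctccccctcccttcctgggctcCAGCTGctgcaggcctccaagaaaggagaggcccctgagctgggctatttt
Ckm: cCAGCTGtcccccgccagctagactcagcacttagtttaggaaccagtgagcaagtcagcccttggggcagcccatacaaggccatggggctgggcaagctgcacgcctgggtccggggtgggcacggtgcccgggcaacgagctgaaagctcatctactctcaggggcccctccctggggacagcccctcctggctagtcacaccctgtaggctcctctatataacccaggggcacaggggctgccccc
Acta1: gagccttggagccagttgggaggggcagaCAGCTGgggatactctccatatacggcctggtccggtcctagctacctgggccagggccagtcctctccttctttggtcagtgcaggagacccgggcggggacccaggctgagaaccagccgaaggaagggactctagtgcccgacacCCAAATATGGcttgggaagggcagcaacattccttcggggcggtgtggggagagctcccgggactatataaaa
The CAGCTG lies 51 bases before the start in Mylpf, 249 in Ckm and 221 in Acta1, and the CArG box of Acta1 lies 73 bases before it. CAGCTG reads the same on both strands. It was present in the same window of 14 of the 23 muscle list genes that did not overlap between the sides and have a promoter entry (60.9%), of 25 of the 64 muscle list genes tested that have one (39.1%), and of 12.8% of all 27025 promoters. The clock E-box CACGTG was present in 1 of the 23 (4.35%) and in 6.05% of all promoters, and the CArG box in 3 (13.0%) and 1.40%. Among the 11866 promoters of all genes tested, the shares were 12.4% for CAGCTG, 8.12% for CACGTG and 1.15% for the CArG box. A match is a run of letters and not evidence of binding.

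Genes were kept for analysis when 5 or more samples reached an FPKM of 1, which left 16741. Of these, 52 did not overlap between the sides and were higher in the muscle-rich samples (0.311%), Mylpf included, and 31 of the 52 were among the 89 muscle list genes tested. Only 1 gene was lower without overlap (0.00597%). The mean difference of log2(FPKM + 1), muscle-rich minus muscle-poor, had a median of 1.21 over the muscle genes and of -0.05 over all genes tested, and it was above 0 in 87 of the 89 muscle genes. Without ZT14 replicate 3, 62 genes were higher without overlap and the muscle median was 1.22. Leaving out a sample can only keep or add genes without overlap, so all 52 stayed by construction. With time as a term the muscle median was again 1.22. Differences below are on this log2 scale, with the standard error (SE) over 10 samples per side as a measure of spread.

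In the fast thin filament list, which also held the alpha-actinin gene Actn3, 7 of 8 genes did not overlap, against 0.311% of all genes tested. Actn3 was among the 7, and the median difference was 1.75. Acta1, the skeletal actin itself, ran from 439 through 701 to 1413 FPKM in the muscle-rich samples against 103 through 214 to 350 FPKM, a difference of 1.78 (SE 0.23). Tnnc2, the calcium sensor of fast troponin, differed by 1.76 (SE 0.20), and Tpm2 and Tpm1, the tropomyosins, by 1.70 (SE 0.20) and 1.31 (SE 0.14). The 8th gene, the giant filament ruler Neb, differed by 1.09 (SE 0.27) with overlap. The thin filament was thus the list with the largest share of genes kept apart.

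In the fast thick filament 4 of 8 genes did not overlap, against 0.311% of all genes tested, and the median was 1.56. The count of 4 and the median include Mylpf, whose separation the ranking fixed. Myl1, the fast essential light chain, ran from 589 through 768 to 1444 FPKM against 137 through 260 to 439 FPKM and differed by 1.65 (SE 0.20). Myh4, the heavy chain of the fastest fibres, ran from 146 through 243 to 533 FPKM against 35.5 through 84.4 to 133 FPKM and differed by 1.73 (SE 0.27). Its sides did not overlap, while those of the next fast heavy chains did: Myh1 differed by 1.26 (SE 0.20) and Myh2, of oxidative fast fibres, by 0.79 (SE 0.28).

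The heavy chains mark the type of fibre. Of the summed FPKM of 9 heavy chain genes, Myh4 took 69.2% ± 9.58 (SD, n = 10) in the muscle-rich and 60.6% ± 8.31 (SD, n = 10) in the muscle-poor samples. Myh1 took 15.8% ± 3.49 and 18.8% ± 4.37, and Myh2 4.13% ± 1.93 and 6.35% ± 2.23 (all SD, n = 10). Fast isoforms thus led on both sides, and the ranges of every share overlapped between the sides. Myh3, the embryonic heavy chain, took 5.26% ± 2.79 and 8.36% ± 3.27, and Myh7, the slow heavy chain, 0.80% ± 0.46 and 0.87% ± 0.42 (SD, n = 10).

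Myh13, the heavy chain known from eye-moving and laryngeal muscles, did not track Mylpf closely. It ran from 0 through 8.48 to 52.8 FPKM in the muscle-rich samples and from 0 through 1.18 to 12.4 FPKM in the muscle-poor samples, with 1 sample listed at 0 on each side. The highest sample was ZT19 replicate 5, and ZT14 replicate 3 was the muscle-rich sample at 0. The difference was 1.62 (SE 0.72) with overlap and 1.96 without ZT14 replicate 3, and the share among heavy chains was 3.84% ± 3.81 against 2.68% ± 4.17 (SD, n = 10). The fast markers are shared with limb and trunk muscle, so they do not tell eye-moving muscle from other muscle. Myh8, the perinatal chain, differed by 0.38 (SE 0.31) and Myh7b by -0.14 (SE 0.34), both at a few FPKM or less, and Myh6, the atrial chain, was at or near 0 throughout.

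The slow-fibre list held 7 genes, all with a difference above 0, none without overlap, and a median of 0.80. Mybpc1, the slow myosin-binding protein, was the most abundant and differed by 1.44 (SE 0.28). Slow troponin genes differed less: Tnnt1 by 0.61 (SE 0.30) and Tnni1 by 1.11 (SE 0.33). Myl2, the slow regulatory light chain, ran from 15.3 to 76.8 FPKM in the muscle-rich and from 1.46 to 110 FPKM in the muscle-poor samples, so its highest value lay on the muscle-poor side. Whether slow and fast genes differed from each other in their response was not tested.

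Calcium handling and excitation followed the fast filaments. Of 15 genes 6 did not overlap, against 0.311% of all genes tested. Of the 15, 13 were higher by at least 1, against 1.57% of all genes tested, and the median was 1.46. Atp2a1, the fast calcium pump SERCA1, ran from 508.1 through 817 to 1575 FPKM against 116 through 235 to 352 FPKM, a difference of 1.87 (SE 0.23). Pvalb, the calcium buffer of the fastest fibres, ran from 668 through 1011 to 2305 FPKM against 145 through 319 to 455 FPKM, a difference of 1.85 (SE 0.24). Casq1, which stores calcium in the reticulum, differed by 1.84 (SE 0.20), and its anchor Trdn by 1.55 (SE 0.22). All 4 were kept apart between the sides.

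Energy metabolism held the list with the most genes kept apart, 9 of 13, against 0.311% of all genes tested, and its median was 1.53. Ckm, the muscle creatine kinase, ran from 952 through 1405 to 2983 FPKM against 232 through 366 to 587 FPKM, a difference of 1.92 (SE 0.20). Mb, the oxygen store myoglobin, differed by 1.53 (SE 0.19), and Eno3, the muscle enolase, by 1.496 (SE 0.22). Cox8b, a muscle and heart subunit of cytochrome oxidase, differed by 1.18 (SE 0.18). Its partner Cox6a2 differed by 1.99 (SE 0.26). Ampd1, the AMP deaminase of muscle, had the largest difference of the list, 2.33 (SE 0.47), but from 1.58 to 41.8 FPKM against 0 to 8.35 FPKM, with overlap.

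The Z-disc and titin list had 4 of 12 genes without overlap, against 0.311% of all genes tested, and a median of 1.28. Myoz1, a calcineurin-binding Z-disc protein, differed by 1.75 (SE 0.24), Des, the intermediate filament desmin, by 1.40 (SE 0.19) and Actn2, the alpha-actinin of all fibres, by 1.21 (SE 0.21), the last with overlap. Tcap, which caps titin at the Z-disc, differed by 1.71 (SE 0.31). It overlapped through 1 muscle-poor sample, ZT9 replicate 1, at 307 FPKM against 265 FPKM in the lowest muscle-rich sample. Of 9 chaperone and turnover genes only Klhl41, a thin filament stabiliser, was kept apart, at 1.35 (SE 0.20). Fbxo32, the ubiquitin ligase known from muscle wasting, differed by 0.06 (SE 0.13), with a median of 11.2 against 10.9 FPKM.

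Genes of the synapse and of muscle identity were low, a range in which log2(FPKM + 1) understates changes. None of the 5 neuromuscular junction genes tested or the 7 regulators tested was kept apart, which is near the share of 0.311% over all genes tested. Their medians were 0.30 and 0.35. Rapsn, which clusters acetylcholine receptors, ran from 3.95 to 22.8 FPKM against 3.45 to 18.1 FPKM. Chrng, the fetal receptor subunit, was listed at 0 in all 20 samples of the sides, and Chrne, the adult subunit, had a median of 0 on both. Myf6, the regulator of mature fibres, had a median of 10.6 against 3.15 FPKM and a difference of 1.31 (SE 0.46), with ZT14 replicate 3 listed at 0. Without that sample the difference was 1.66, and with time as a term it was 0.66. Myod1 and Myog stayed below 4 FPKM in every sample, and Pax7, the satellite cell factor, below 1.

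**Figure D2:**
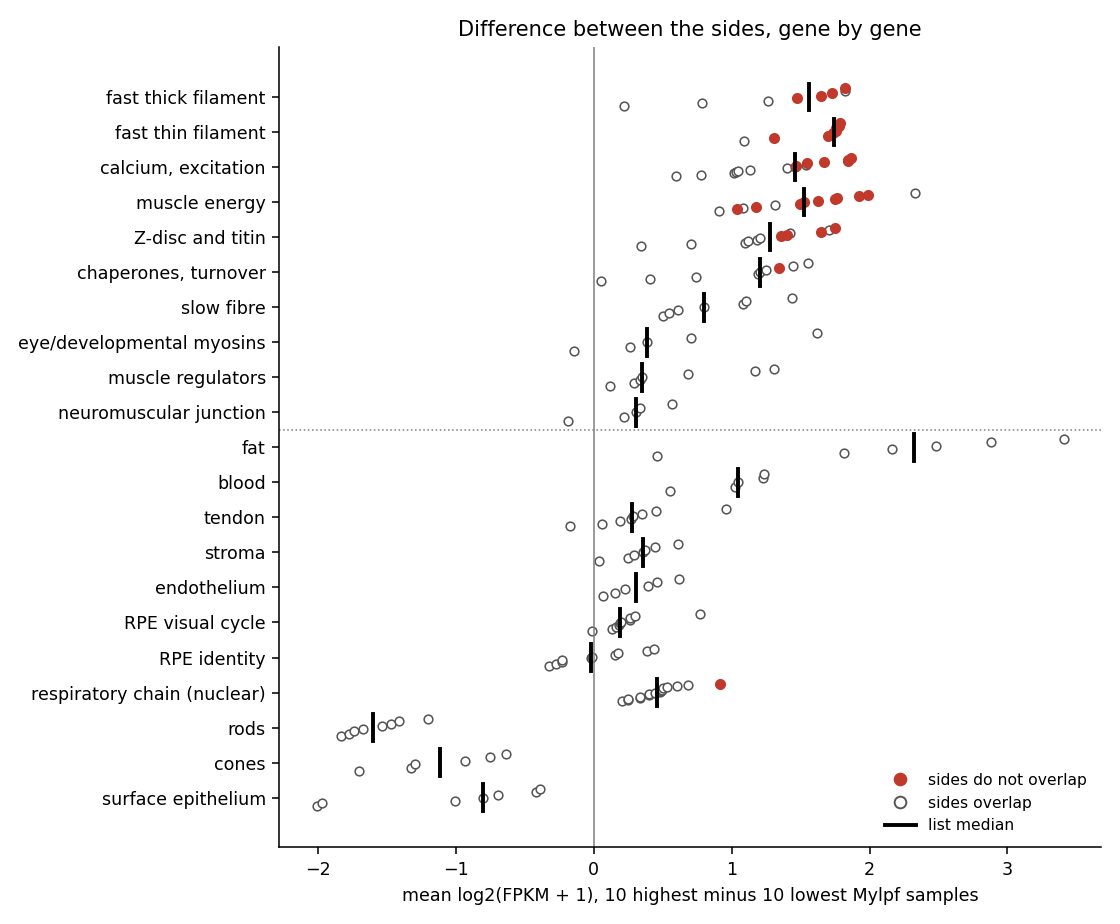
Mean difference of log2(FPKM + 1), 10 highest minus 10 lowest Mylpf samples, for each tested gene (points) of the 10 muscle lists (above the dotted line) and of 11 other lists, with list medians as bars. Filled points are genes whose sides do not overlap; 31 of them are muscle list genes.

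Outside the lists 19 genes were kept apart and higher in the muscle-rich samples. The largest differences were those of Mybphl, a myosin-binding protein relative, with 15.7 to 90.7 FPKM against a highest muscle-poor value of 9.86 (2.29, SE 0.30), of the membrane protein gene Tmem182 (1.81, SE 0.24) and of Ankrd23, a titin-associated ankyrin-repeat protein (1.76, SE 0.25). Rtn2, a reticulon of the sarcoplasmic reticulum, differed by 1.71 (SE 0.18), Hfe2, the hemojuvelin gene, by 1.44 (SE 0.23) and Scn4b, a sodium channel subunit, by 1.44 (SE 0.19). Rpl3l, the muscle form of a ribosomal protein, differed by 1.43 (SE 0.21), Txlnb by 1.35 (SE 0.24), Pde4dip, also called myomegalin, by 1.29 (SE 0.18) and Cmya5, or myospryn, by 1.28 (SE 0.20). Most of these 10 genes are known from striated muscle although no list held them. Actc1, the cardiac actin that skeletal muscle also makes, was kept apart as well, at 25.4 to 167 FPKM against 8.92 to 24.8 FPKM (2.18, SE 0.31), while the other 3 cardiac genes tested were not. The 1 gene kept apart and lower was Igsf1, a membrane glycoprotein gene, at 0 to 3.51 FPKM (-1.11, SE 0.16); all its values are low.

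The 10 genes whose log2 level lay closest to Mylpf over the 30 samples were all muscle list genes. By Pearson r, a description over samples of which 20 were chosen by Mylpf, they were Ckm (0.963), Tnnc2 (0.957), Tnnt3 (0.950), Acta1 (0.949), Tnni2 (0.947), Tpm1 (0.944), Myl1 (0.943), Atp2a1 (0.942), Tpm2 (0.941) and Pvalb (0.938). All points share a library with the Mylpf value they are set against. Each of the 10 was kept apart between the sides.

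The 10 middle samples, which lie on neither side, were fitted separately. They too were set by their Mylpf level, which is the predictor here, while the other genes played no part in the choice. The log2 level of each gene was regressed on that of Mylpf with limma, over Mylpf values of 1683 to 2553 FPKM, a narrow range. At an adjusted p of 0.05, limma called 0 of 16714 genes in either direction (0.0%). At an unadjusted p under 0.05 it found 602 positive (3.60%) and 478 negative slopes (2.86%). Of the 88 muscle genes tested other than Mylpf, 26 had a positive slope at that unadjusted level (29.5%) and 0 a negative one. The slope was above 0 in 75 of the 88, and its median was 1.00 over the muscle genes and 0.00 over all genes, where 1 means a change in proportion to Mylpf. These muscle genes share their libraries with Mylpf and are not independent of each other. The counts at an unadjusted p are therefore a description.

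Single slopes in these 10 samples varied about that median, and none passed adjustment. The 3 muscle genes with the lowest unadjusted p were Acta1, Des and Tnnt3. Acta1 had a slope of 1.42 (SE 0.32, limma adjusted p = 0.595), Tnnt3 of 1.34 (SE 0.32, adjusted p = 0.595) and Des of 1.53 (SE 0.34, adjusted p = 0.595). Tnni2, a defining marker, had a slope of 0.47 (SE 0.31, adjusted p = 0.832). Over the 88 genes the slopes ran from -1.39 (SE 0.79) for Ttn to 4.33 (SE 1.495) for Myl4. In simulated data slopes of 1 and 2 were each recovered in 0.0% and a slope of 3 in 5.2% of the genes given it. The simulation took its spread from all 30 samples with time means removed, not from the middle 10. What the fit can call in the middle samples was thus not measured.

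Transcripts of other tissues differed between the sides too, with overlap. The 6 fat genes tested had the largest median difference of any list, 2.32, and 5 of them were higher by at least 1, against 1.57% of all genes. Fabp4, the fatty acid carrier of fat cells, ran from 19.8 through 231 to 608 FPKM in the muscle-rich samples against 6.17 through 13.1 to 243 FPKM in the muscle-poor samples (2.88, SE 0.73). Cfd, the fat-cell protease adipsin, ran from 7.18 through 121 to 290 FPKM against 0 through 3.904 to 128 FPKM (3.41, SE 0.99). Of the 10 samples of all 30 with the highest summed fat level, 8 were muscle-rich, 2 muscle-poor and 0 of middle rank. With time as a term the fat median was 2.10, without ZT0 and ZT19 it was 1.65, and for 15 against 15 samples 1.26.

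In the middle samples the fat genes did not follow Mylpf in the same direction. Only 1 of 6 had a slope above 0, with a median of -1.89. Adipoq, the fat hormone adiponectin, had a slope of -4.08 (SE 1.41) and Cfd one of -4.14 (SE 1.85). Both were past an unadjusted p of 0.05 in limma, and neither passed adjustment (adjusted p = 0.731 and 0.763). The plot of slopes against side differences sets these beside the muscle genes. The part of fat in the muscle differences was not tested.

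**Figure D3:**
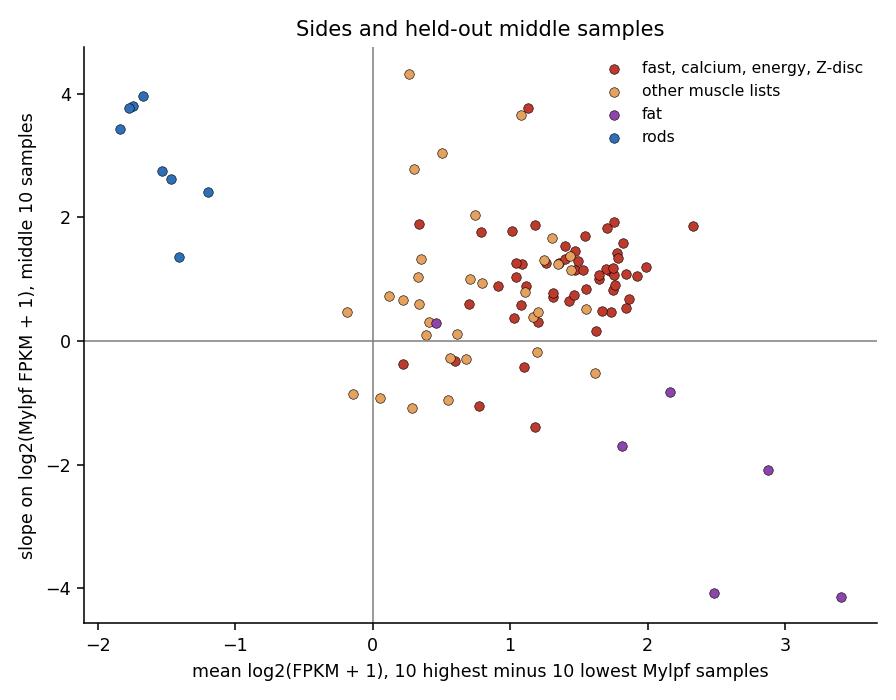
Slope on Mylpf in the 10 middle samples (vertical, log2 per log2) against the mean difference between the sides (horizontal, log2), 1 point per gene. Muscle genes have a median slope of 1.00 with a wide spread, while most fat genes lie at the lower right and all 8 rod genes at the upper left, with opposite signs in the samples used for each axis.

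Red cell genes were higher in the muscle-rich samples, with a median of 1.05 over 5 genes and 0.57 with time as a term. Hbb-bs, an adult beta-globin, ran from 458 through 871 to 1276 FPKM against 165 through 346 to 776 FPKM (1.24, SE 0.26), and Hba-a1, an alpha-globin, differed by 1.03 (SE 0.29). The summed blood level ran from 763 to 2313 FPKM against 281 to 1619 FPKM. Tendon genes hardly differed, with a median of 0.28 over 8 genes and -0.04 with time as a term. In the middle samples, however, 6 of the 8 had a positive slope on Mylpf at an unadjusted p under 0.05 in limma. The share over all genes was 3.6%. None of the 6 passed adjustment, and among them was Fmod, a collagen-binding proteoglycan, at 1.73 (SE 0.65). The tendon genes share these 10 samples and are not independent of each other. Stroma and endothelium had medians of 0.36 and 0.31.

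Photoreceptor genes went the other way. All 8 rod genes were lower by at least 1 in the mean, with a median of -1.60, against 1.91% of all genes lower by as much, and none was kept apart. The median was -0.70 for 15 against 15 samples and -0.95 when samples were ranked by Tnnt3. Gnat1, the rod transducin subunit, ran from 15.7 through 58.7 to 1361 FPKM in the muscle-rich samples, with the middle value the median, against 11.6 through 511 to 2139 FPKM in the muscle-poor ones (-1.67, SE 1.07). Its spread within a side was wider than the gap between the medians. Cone genes had a median of -1.12. In the middle samples all 8 rod genes had a slope above 0, median 3.08, with 0 past an unadjusted p of 0.05. The sign of the rod genes thus differed between the sides and the middle samples, which was not tested.

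Surface epithelium genes of cornea and conjunctiva had a median of -0.81. It changed sign to 0.21 with time as a term and was -0.25 without ZT0 and ZT19. Krt12, the corneal keratin, ran from 3.42 through 682 to 4591 FPKM against 116 through 2519 to 4629 FPKM. Its difference of -2.01 (SE 1.13) became 0.24 with time as a term and was -0.40 without ZT0 and ZT19.

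RPE genes themselves were about level in the list medians. The 10 visual cycle genes had a median of 0.19, or -0.16 with time as a term, and the 10 RPE identity genes a median of -0.02. Ttr, the retinol carrier transthyretin and the most abundant of them, ran from 2240 through 5378 to 7188 FPKM against 2586 through 3935 to 6499 FPKM (0.30, SE 0.21). Rgr, an RPE opsin, differed by 0.20 (SE 0.23). The summed visual cycle level had a higher median in the muscle-rich samples, 12595 against 9473 FPKM, with overlap. The 16 nuclear respiratory chain genes were all slightly higher, with a median of 0.46 against -0.05 over all genes tested. Of them Cox5a, a cytochrome oxidase subunit, was kept apart, as were 0.311% of all genes tested. It ran from 251 to 476 FPKM against 134 to 234 FPKM (0.92, SE 0.12). Ndufs8 and Uqcrh, respiratory chain genes outside the lists, were kept apart too, at 0.65 (SE 0.08) and 0.56 (SE 0.08). Cox4i1 differed by 0.50 (SE 0.11) and Atp5b, of ATP synthase, by 0.40 (SE 0.07). Housekeeping genes had a median of -0.01.

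**Figure D4:**
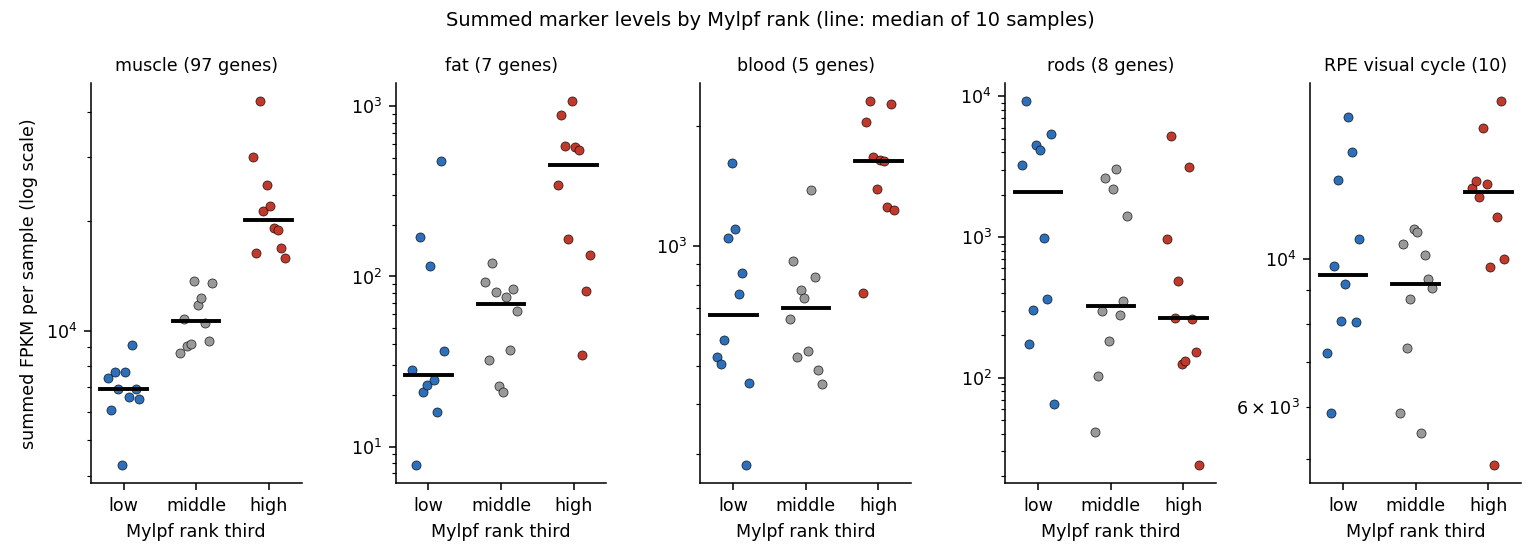
Summed FPKM per sample (log axes, scaled separately) of 5 marker lists in the muscle-poor, middle and muscle-rich samples, with bars at medians of 10 samples. Muscle sums of the sides do not overlap (4277 to 9120 against 15884 to 42683 FPKM); those of fat, blood, rods and the RPE visual cycle do.

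Whether muscle level followed time of day was asked of all 30 samples, since time was no part of the choice. Mean Mylpf was lowest at ZT0, 1591 ± 386 FPKM (SD, n = 5), and highest at ZT19, 5075 ± 2884 FPKM (SD, n = 5). The 5 samples of ZT19 ran from 2234 to 9847 FPKM and lay above all 5 samples of ZT0, which ran from 1100 to 2094 FPKM. The other means were 2378 ± 1729 at ZT2, 3030 ± 1310 at ZT4, 1882 ± 712 at ZT9 and 2368 ± 1464 FPKM at ZT14 (SD, n = 5). ZT14, a night time, thus lay near ZT2 and below ZT4. Its highest sample was replicate 3 at 4874 FPKM, and its median was 1694 FPKM. Day minus night for Mylpf was -0.53 (SE 0.28), limma adjusted p = 0.501. Over all genes limma called 2 higher by day (0.0119%) and 3 higher at night (0.0179%), none of them a muscle gene. At an unadjusted p under 0.05, 20 of 89 muscle genes were higher at night (22.5%) and 2 by day (2.25%), against 4.33% and 6.21% of all genes. Pvalb was among the 20, at -0.88 (SE 0.30, limma adjusted p = 0.337). The muscle genes share their samples and their source and are not independent of each other.

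The level of muscle also entered the study's own question as a term in the 24 h rhythm fit. Without it, limma called 18 genes rhythmic (0.108%), none a muscle gene. With the log2 level of Mylpf as a term it called 23 (0.137%), and all 18 were among them. The clock genes among the called kept their place: Arntl, the activator BMAL1, had an amplitude of 1.57 (SE 0.15), Dbp, a clock output factor, of 1.18 (SE 0.12), and Nr1d1, the repressor REV-ERB alpha, of 1.34 (SE 0.13) on the log2 scale. Nr1d2, Per1, Per2 and Per3 were called in both fits as well. The 5 genes gained were Tcap, Mylk4, Col3a1, Rad54b and Glul, of which the last 3 passed narrowly, with adjusted p of 0.0480, 0.0498 and 0.0499. Apart from the clock genes and Tcap, the genes in this paragraph were named after their values were seen.

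Tcap was the muscle list gene called. Its amplitude was 0.62 (SE 0.09) with the highest point at ZT 12.05 and a limma adjusted p of 3.40e-04. Without the Mylpf term the amplitude was 0.69 (SE 0.19), the peak at ZT 14.3 and the adjusted p 0.364. As background, Tcap is known as a gene that the muscle clock drives in limb muscle. The ratio of Tcap to Mylpf FPKM ran from 0.0614 to 0.0796 at ZT0, from 0.0512 to 0.0791 at ZT2 and from 0.0590 to 0.0851 at ZT4. It ran from 0.0738 to 0.221 at ZT9, from 0.120 to 0.164 at ZT14 and from 0.0646 to 0.121 at ZT19. All 5 samples of ZT14 and 4 of the 5 of ZT9 thus lay above every sample of ZT0, ZT2 and ZT4. The exception at ZT9 was replicate 2, and both sides and the middle samples were among the high values.

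Other muscle transcripts gave the same call for Tcap when they replaced Mylpf as the term, a choice made after seeing the data. The limma adjusted p ranged from 6.78e-06 with Tnnt3 to 9.49e-04 with Tnni2, with Ckm and Acta1 between, and it ranged from 1.29e-05 to 0.00132 when each of the 30 samples was left out. The largest of these, 0.00132, was without ZT14 replicate 3. The ratio of Tnnt3 to Mylpf, set beside it, had a mean of 0.289 ± 0.047 at ZT4 and 0.377 ± 0.069 at ZT14 (SD, n = 5), and its ranges at all 6 times overlapped. The ratio of Pvalb to Mylpf ran from 0.192 to 0.232 at ZT4 and from 0.247 to 0.348 at ZT14, without overlap. At ZT0 it ran from 0.234 to 0.311. Pvalb was not called with the Mylpf term (limma adjusted p = 0.563). Of the 10 samples of ZT9 and ZT14, 4 lay above all of ZT0, ZT2 and ZT4 for Ckm, 2 for Tnnt3 and 0 for Tnni2.

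Mylk4, a myosin light chain kinase relative (chr13:32700834-32783954, minus strand), was called with an amplitude of 0.83 (SE 0.14), a peak at ZT 14.1 and a limma adjusted p of 0.00834. Without the term the adjusted p was 0.0745. Its mean level was 7.02 ± 2.68 FPKM at ZT0 and 36.1 ± 19.6 FPKM at ZT19 (SD, n = 5), and its ratio to Mylpf ran from 0.00149 to 0.00494 over the 15 samples of ZT0, ZT2 and ZT4. At ZT9 and ZT14 together it ran from 0.00474 to 0.0209, with 9 of 10 samples above all of those 15. At an unadjusted p under 0.05 limma found 8 of 89 muscle genes rhythmic without the term, against 8.76% of all genes, and 6 of 88 with it, against 7.81%. Both shares are near the background.

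**Figure D5:**
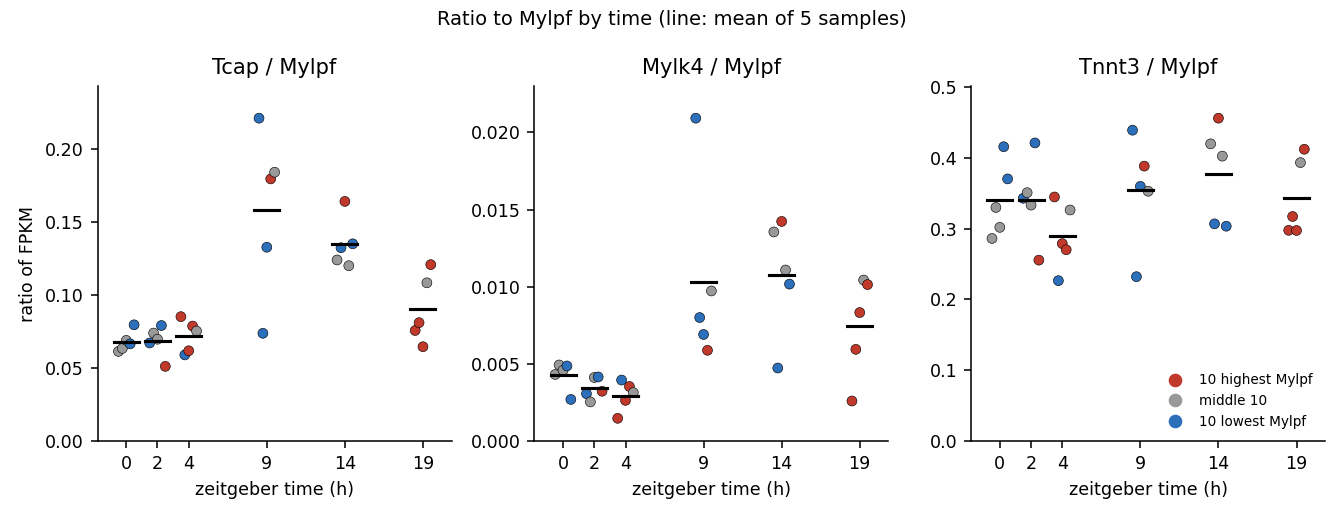
Ratio of Tcap, Mylk4 and Tnnt3 FPKM to Mylpf FPKM in each sample by zeitgeber time (h), with bars at the mean of 5 samples and colour for the side. Tcap stays at or below 0.0851 at ZT0, ZT2 and ZT4 and reaches 0.221 at ZT9, while Tnnt3 overlaps at all times.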

How the data were processed

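RNA sequencing (single reads of 75 bp) was made of RPE from 30 mice. The values used are the FPKM that the authors deposited, 1 per gene and sample for 51904 genes, written with decimal commas. The unit is taken from the table's name and was checked on the values. Per the submitters' processing notes, STAR, Cufflinks, DESeq2 and mm10 were used; roles and versions are not given in the sources used here. No reads or counts were analysed here. Depth is an estimate, read off how finely low FPKM values are spaced, and is not a deposited count. Reads shared between near-identical genes, such as myosin heavy chains, may have been split in ways not stated.

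Samples were ranked by Mylpf. The 16741 genes that reached an FPKM of 1 in 5 or more samples were analysed as log2(FPKM + 1), which understates changes of low genes. A gene was called kept apart where the lowest sample of one side lay above the highest of the other. The slope on Mylpf in the middle 10 samples, day (ZT2, ZT4, ZT9) against night (ZT14, ZT19) and a 24 h cosine were fitted in R 4.3.3 by limma 3.58.1, using a variance trend, two-sided, with Benjamini-Hochberg adjustment over all genes and a threshold of 0.05. P-values measure the spread between mice, 1 sample each. Fits were checked on simulated data, 16741 genes per draw, with the spread of all 30 samples after time means were removed. With Mylpf as a term, the rhythm fit recovered 21.2% of genes given an amplitude of 0.5 and 73.6% of those given 1. Day against night recovered 47.2% at a difference of 1.

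The members and the 33 gene lists were chosen with earlier results of these data known. Named genes were: of each muscle list the 4 highest by mean FPKM; all heavy chains, regulators and junction genes; of each other list the 2 highest; clock genes called; the 10 largest differences outside the lists in each direction among genes kept apart; the 10 closest to Mylpf; and genes called in the middle samples. Some genes that this rule names are not reported here. Other named genes were chosen after their values were seen. Alternatives were other side sizes, ranking genes, scalings, filters and pseudocounts, and left-out samples. Promoters are from RefSeq (GRCm38.p6), where 23 of 31 muscle genes kept apart have an entry, and gene positions from GENCODE M21. Figures and tables used Python 3.11.15, pandas 2.3.3, NumPy 2.4.6, SciPy 1.17.1 and matplotlib 3.10.9.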

Additional observations from a re-analysis of the deposited data

Results flagged for a closer look

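In 12 of 170 groups of 10 samples looked at, 1 sample lay far from the other 9, by a gap of more than 0.466 of the whole range. Chance alone flags about 1 in 20 groups when values are random draws from a normal distribution. The groups here were formed by Mylpf rank and hold raw FPKM, so that rate need not apply. For Mylpf, whose values formed the groups, the sample set apart was ZT19 replicate 2, at 9847 FPKM against 5245 in the next muscle-rich sample. For Aldoa, the muscle and ubiquitous aldolase, it was the same sample at 1665 against 1302 FPKM.

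ZT4 replicate 1 was the lowest muscle-rich sample for 4 pigment epithelium or pigment cell genes and for Dok7. It held 2240 FPKM of Ttr (next 4170), 1118 of Rgr (next 2367), 54.2 of Kcnj13, a potassium channel of RPE (next 279.7), and 276 of Tyrp1, a melanin enzyme (next 645). Dok7, a muscle synapse adaptor, was at 1.496 FPKM there (next 5.26).

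ZT14 replicate 3 was listed at 0 for Myf6, where the next muscle-rich sample held 6.11 FPKM. Among the muscle-poor samples, ZT0 replicate 5 was lowest for Fbxo32 (6.59 against 9.19 FPKM) and Ezr, an apical membrane linker (92.2 against 168), and highest for Eno1, the ubiquitous enolase (1108 against 669). Bpifa2, a secretory gland gene, was at 4.04 FPKM in ZT2 replicate 4 and at 0 in the other 9.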

How the results depend on the processing

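The number of genes kept apart depended on the size of the sides. It was 89 higher and 4 lower for 8 against 8 samples, and 5 and 0 for 15 against 15, where 4 of the 5 were muscle genes. Without the samples of ZT0 and ZT19, an alternative chosen after seeing the data, it was 82 and 8. The 1 lower gene became 0 when samples were ranked by Tnni2. The count was also 0 when 10 or more samples had to reach an FPKM of 5. With values rescaled outside the muscle lists, 2 genes were lower and 35 higher, with 22 muscle list genes among the 35 against 31 as deposited. Mean total FPKM as deposited was 838357 on the muscle-rich and 769174 on the muscle-poor side. Leaving out 1 of the 20 samples in turn gave 52 to 63 higher and 1 to 2 lower. Taking samples from a side can only keep or add genes kept apart. The counts for 8 against 8, without ZT0 and ZT19 and with 1 sample left out thus could not fall. The median of all genes was -0.13 after rescaling outside the muscle lists, and the muscle median 1.12. The muscle median lay between 0.99 and 1.35 under all 30 alternatives run.

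The median of the central myelin list, 0.08, changed sign to -0.042 for 15 against 15 samples, -0.15 when ranked by Tnni2 and -0.014 when rescaled, and ranged from -0.26 to 0.34 with 1 sample left out. That of the RPE visual cycle became -0.082 without ZT0 and ZT19, and that of the nuclear respiratory chain 0.32 for 15 against 15. The causes were not tested.

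With 1 of the middle samples left out, limma called 0 to 3 positive slopes on Mylpf, 3 without ZT2 replicate 2 and 2 without ZT4 replicate 5, none of them muscle genes. Day against night gave 1 to 3 genes higher by day and 3 to 5 at night with 1 sample left out, the extremes without ZT14 replicate 2 (1) and ZT19 replicate 3 (5). The rhythm of Tcap had an adjusted p of 0.364 and that of Mylk4 of 0.0745 without a muscle term. In simulated data with the spread of all 30 samples, the slope fit recovered 5.2% of genes given a slope of 3. No paired analysis was possible because the replicate numbers were given in accession order and each animal gave 1 sample.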
